A study of Mus musculus with 10 samples.

Results

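The imprinted growth genes described here are H19, Dlk1, Meg3, Peg3, Mest, Grb10, Plagl1, Ndn and Zim1, measured in mouse C2C12 myoblasts that had been given miR-27a-3p as a mimic or a scrambled control. Members were all non-control probes whose gene name in the scanner files was 1 of these 9 symbols. This gave 25 probes for 9 genes, of 55681 probes and 34607 genes or transcripts on the array. Of the 9 genes, 5 (H19, Peg3, Mest, Zim1 and Plagl1) had a probe bright enough to be tested, and 4 (Dlk1, Meg3, Grb10 and Ndn) did not.

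An imprinted gene is expressed mainly from the copy inherited from 1 parent, and its imprint is often, though not always, DNA methylation set in the germ line. Many imprinted genes act on prenatal growth, are abundant in embryonic tissues and are switched down after birth, and several are expressed in skeletal muscle precursors. H19 is a maternally expressed long non-coding RNA that shares control elements with the neighbouring paternally expressed growth factor gene Igf2, and its transcript is the precursor of miR-675.

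C2C12 is a line of mouse skeletal muscle myoblasts that can be made to fuse into myotubes. Mimic cells received a synthetic RNA that supplies mature miR-27a-3p, and control cells received a scrambled sequence, both delivered with the same lipid reagent at 150 nM and collected after 72 h. The labels put transfection efficiency at about 60%, so each sample mixed transfected with untransfected cells, and cells without any transfection were not analysed here. The labels list 6 mimic and 4 scrambled samples of this 1 line.

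RNA was read on 1-colour Agilent arrays, and the 10 files proved to be 5 array positions of 1 slide, each scanned 2 times. The scans of a position were averaged, so that the comparison rests on 3 arrays with the mimic and 2 with the scrambled sequence. Each file held 59305 spots that were not controls, of which 27% to 35.3% were well above background and 0 were saturated. Of 7 myoblast markers, 6 were above background in all files and Myf5 in only 1 of the 10. The adipocyte markers Adipoq, Plin1, Cidec and Lep and the epithelial markers Epcam, Cdh1, Krt8 and Krt18 were above background in no file, and neither were Pecam1, Cdh5 and Tek (endothelial), Ptprc and Adgre1 (leukocyte) or Dpt (fibroblast). Kdr, Cd68 and Col1a1 of the last 3 lists were above background in all files, Csf1r and Lum in at most 9 and Pdgfra in at most 2. Levels below are in log2 units above or below the 75th percentile of detected probes in the same file, and differences are mimic minus scrambled sequence on that scale. In bulk RNA, fewer cells of a type and less RNA per cell cannot be told apart.

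The transfected microRNA is shown first, because its seed (bases 2 to 8, in capitals) is the part that pairs with targets. Below it stand the microRNAs that H19 and Mest carry inside their own transcription units, which share no seed with it or with each other. Sequences and positions are from RefSeq on GRCm38.p6: miR-27a-3p is at chr8:84208727-84208747 (plus strand), the miR-675 arms at chr7:142577112-142577133 and chr7:142577078-142577099 (minus strand) inside H19, and the miR-335 arms at chr6:30741314-30741336 and chr6:30741354-30741375 (plus strand) inside Mest. The array was not used to measure these small RNAs.
mmu-miR-27a-3p: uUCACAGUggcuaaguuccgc
mmu-miR-675-5p: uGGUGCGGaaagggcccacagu
mmu-miR-675-3p: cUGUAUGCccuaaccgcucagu
mmu-miR-335-5p: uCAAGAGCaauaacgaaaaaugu
mmu-miR-335-3p: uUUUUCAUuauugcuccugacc

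H19 had 7 probes of 60 bases, all on the minus strand of chromosome 7 and placed by the files on mm9 within the non-coding transcript that the array design annotates at chr7:149761435-149764019. The 4 printed here are the brightest probe, the 2 probes whose difference passed the test and the 1 probe too dim to test. In that order they cover chr7:149761492-149761551, chr7:149761957-149762016, chr7:149762173-149762232 and chr7:149762417-149762476, and they start 57, 522, 738 and 982 genomic bases from the 3′ end of the annotated transcript. They are written in the sense of the transcript, with no part in capitals.
A_55_P1961127: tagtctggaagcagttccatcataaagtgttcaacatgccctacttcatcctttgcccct
A_30_P01028007: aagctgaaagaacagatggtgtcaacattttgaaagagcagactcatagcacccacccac
A_30_P01026972: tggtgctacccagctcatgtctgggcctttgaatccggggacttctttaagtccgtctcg
A_55_P1961125: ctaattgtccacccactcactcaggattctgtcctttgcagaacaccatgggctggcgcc
The H19 probes did not share bases with each other, and their GC content was 45% in 5 of them and 55% in A_30_P01026972 and A_55_P1961125. The 7-base match to the miR-27a-3p seed, ACTGTGA, searched in the probe's own sense, was in 0 of the 25 member probes and in 455 of all 55681 probes (0.817%). A probe covers only 60 bases of a transcript, so the rest of each transcript was not searched.

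None of the imprinted growth genes that could be tested passed the test by its chosen probe, and 3 single probes of H19 and Mest did. Each gene was represented by its brightest probe and tested with limma over 13137 genes and transcripts, with Benjamini-Hochberg adjustment and a threshold of 0.05. Of the 5 members tested, 0 were called lower, where 2.33% of all genes tested were (306), and 0 were called higher, where 2.8% were (368). At an unadjusted p under 0.05 the number was 3 of 5, against 3325 of 13137 genes. All 5 differences were negative, with a median of -0.50, against a median of -0.05 over all genes tested. Plagl1 reached the minimum of 4 files above background only with the scrambled files counted, so the filter itself favoured its negative sign. On 3 of the 5, H19, Peg3 and Mest, every mimic array lay below every scrambled array, a pattern seen in 25.7% of all genes tested.

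A second fit took every probe on its own (16719 tested). Of the 13 member probes tested, all were negative, with a median of -0.86 against -0.08 over all probes, and 3 were called lower: A_30_P01028007 and A_30_P01026972 of H19 and A_55_P2090025 of Mest. The share called lower among all probes was 2.17%, and 0 member probes were called higher, against 2.39% of all probes. Groups did not overlap, with the mimic lower, on 11 of the 13, against 27% of all probes. The 13 probes are not independent, since 6 of them read H19, and 2 of them (1 each of Plagl1 and Zim1) reached the minimum of 4 files above background only with the scrambled files counted, so that these counts describe the members and are no test of them. Lower calls made up 45.4% of all gene calls here and 31.8% when levels were set to the 75th percentile of all probes, which put the median over all genes at 0.11. All 13 member probes stayed negative under that scaling, and the same 3 were called.

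H19, the maternally expressed non-coding RNA, had its brightest probe, A_55_P1961127, at levels of 4.07, 4.29 and 4.16 on the mimic arrays, against 4.45 and 4.85 on the scrambled arrays. Its signal was 40953 to 55639 in mimic files and 47783 to 64651 in scrambled files, and no file was saturated there. The means were 4.17 ± 0.11 (SD, n = 3) with the mimic and 4.65 ± 0.28 (SD, n = 2) with the scrambled sequence. All mimic arrays lay below both scrambled arrays, and the scrambled arrays were themselves 0.40 apart. The difference was -0.48 ± 0.17 (SE, log2), or 1.39 times lower, and it missed the threshold (limma adjusted p = 0.165).

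The other tested H19 probes, further from the 3′ end, had differences of -1.43 to -0.86. A_30_P01028007 was at 0.70, 0.76 and 1.0 on the mimic arrays, against 1.91 and 2.58 on the scrambled arrays. A_30_P01026972 was at 1.63, 1.77 and 1.64 on the mimic arrays, against 2.59 and 3.36 on the scrambled arrays. On both, the mimic arrays kept close together and the gap to the nearest scrambled array was wider than the whole mimic range. A_30_P01028007 fell by 1.43 ± 0.24 (SE, log2), a level 2.69 times lower, with an adjusted p = 0.034 in the limma fit of every probe. A_30_P01026972 fell by 1.29 ± 0.25, a level 2.45 times lower (limma adjusted p = 0.047).

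For the 3 other H19 probes the groups were also apart, again by more than the mimic range, but the test was not passed. A_30_P01021588, 258 bases from the 3′ end, was at 3.16, 3.30 and 3.38 on the mimic arrays, against 3.76 and 4.52 on the scrambled arrays, a difference of -0.86 ± 0.25 (limma adjusted p = 0.114). A_30_P01025068, at 321 bases, was at 2.87, 3.03 and 3.21 on the mimic arrays, against 3.75 and 4.68 on the scrambled arrays, a difference of -1.18 ± 0.29 (limma adjusted p = 0.085). A_30_P01028827, at 678 bases, was at 1.11, 1.19 and 1.37 on the mimic arrays, against 1.79 and 2.70 on the scrambled arrays, a difference of -1.02 ± 0.28 (limma adjusted p = 0.107). Scrambled array 2 was the highest array on each of them. The remaining probe, A_55_P1961125, was above background in 0 of 6 mimic files and 1 of 4 scrambled files, so it was not tested and no fold is given.

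**Figure D1:**
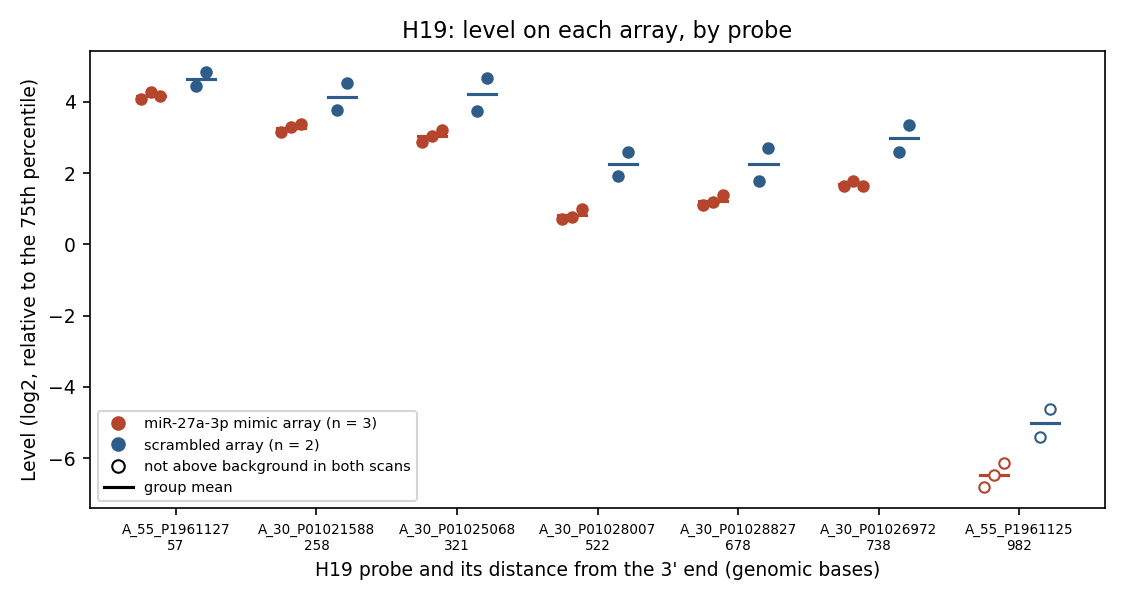
Level of H19 on each array for its 7 probes, in log2 units from the 75th percentile of detected probes, ordered along the x axis by distance from the 3′ end in genomic bases. Points are the 3 mimic arrays (left of each pair) and the 2 scrambled arrays (right), horizontal lines are group means, and open points were not above background in both scans. On every probe the mimic arrays lie below the scrambled arrays, and the probe at 982 bases is the one not above background.

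The gap within an array between the brightest H19 probe and the others was also compared. Between the brightest probe and A_30_P01028007 it was 3.37, 3.52 and 3.17 log2 units on the mimic arrays, against 2.54 and 2.27 on the scrambled arrays. For each of the 5 other tested probes this gap was wider on every mimic array than on either scrambled array. The average excess was 0.38 (A_30_P01021588) to 0.95 (A_30_P01028007). All 5 gaps use the same brightest probe and restate the differences given above, so they are not separate results. That probe ranked from 1 to 18 among all probes, and whether its signal stayed proportional to RNA at that height was not tested. The exact permutation test, two-sided over the 10 splits of 5 arrays, gave p = 0.1 in each of these 5 comparisons before and after Benjamini-Hochberg adjustment, which is the smallest p this design allows, so that no comparison of gaps could pass 0.05.

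**Figure D2:**
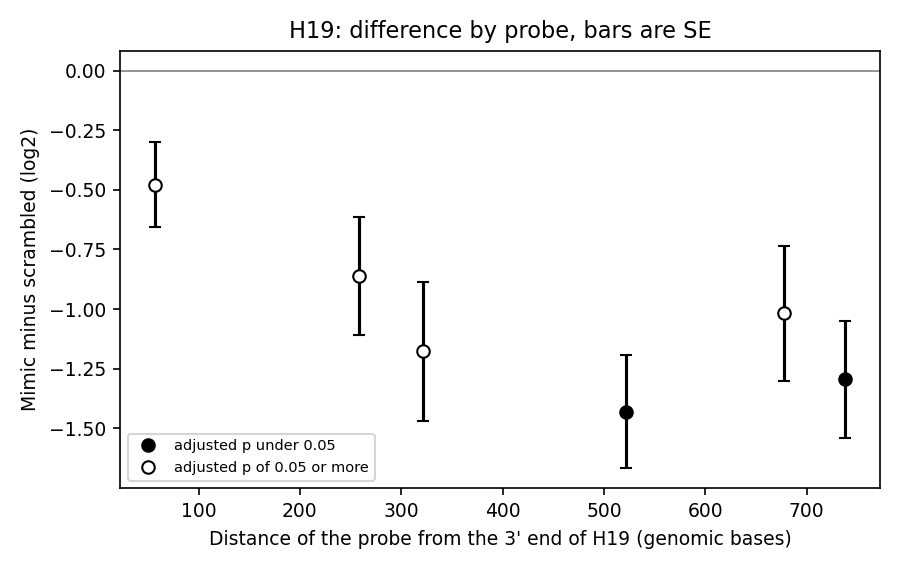
Mimic minus scrambled difference (log2) of the 6 tested H19 probes against their distance from the 3′ end in genomic bases, with standard errors from the fit of every probe as bars. Filled points passed an adjusted p of 0.05. The probe nearest the 3′ end has the smallest difference, -0.48, and the filled points at 522 and 738 bases have -1.43 and -1.29.

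H19 varied more between the scrambled arrays than among the mimic arrays. Scrambled array 2 exceeded scrambled array 1 by 0.40 to 0.92 across the 6 tested probes, whereas the mimic arrays spanned 0.14 to 0.34. Within the first scan alone the difference of the brightest probe was -0.52 and within the second -0.43 (limma adjusted p = 0.152 and 0.229). A_30_P01028007 kept its call within each scan, at -1.44 and -1.42 (limma adjusted p = 0.043 and 0.035), whereas A_30_P01026972 was at -1.37 and -1.22 (limma adjusted p = 0.051 and 0.060). Blocked on scan, with position as a random block, H19 by its brightest probe stayed at -0.48 (limma adjusted p = 0.073). In the blocked fit of every probe the 5 other tested probes were all called, A_30_P01021588, A_30_P01025068 and A_30_P01028827 with a limma adjusted p = 0.030, 0.026 and 0.023. That fit called more probes in general, 1636 of 16621 in either direction, against 763 of 16719 in the main fit of every probe. Without scrambled array 1 the difference of the brightest probe was -0.68, and without scrambled array 2 it was -0.28. Both probe calls were lost without any 1 of the mimic arrays (limma adjusted p of 0.090 to 0.188), and that of A_30_P01028007 also without scrambled array 2 (-1.10, limma adjusted p = 0.055).

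Most of the tested muscle differentiation genes were lower on the mimic arrays together with H19. The linear signals of the 7 myoblast markers, each relative to the 75th percentile, summed to 20.7 to 23.1 in the mimic files and 30.8 to 41.6 in the scrambled files. A list of myogenic differentiation had 14 tested genes. Earlier results of these data already showed it to be lower, so it is not independent evidence. Of the 14, 8 fell and 0 rose, where 2.33% of all genes tested fell and 2.8% rose. The median difference was -1.48, against -0.05 over all genes tested. The other 6 were not called, among them Myl1, the only positive one, at 0.18 ± 0.38 (limma adjusted p = 0.779). Myog, Des and Chrna1 belong both to this list and to the myoblast markers. Myog, the factor that starts terminal differentiation of myoblasts, was at 0.32, 0.45 and 0.50 on the mimic arrays, against 2.22 and 2.82 on the scrambled arrays, and fell by 2.10 ± 0.21 (limma adjusted p = 0.0092). Scrambled array 2 was the higher one for Myog as for H19. The fall passed for Tnnc2 and Tnnt1, troponins of the sarcomere, and for Mymx, a peptide of myoblast fusion, at -1.55 ± 0.15, -1.36 ± 0.13 and -1.56 ± 0.16 (limma adjusted p = 0.0084, 0.0090 and 0.0095), and for these 3 genes scrambled array 1 was the higher one. The part of these differences in the H19 result was not tested. The 4 fibroblast markers summed to 3.29 to 3.61 in mimic files and 1.90 to 2.96 in scrambled files, mostly from Col1a1, and neither of the 2 tested was called (Col1a1 at 0.56 ± 0.20 and Lum at 0.19 ± 0.40, limma adjusted p = 0.166 and 0.781).

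Mest, a paternally expressed gene that encodes a hydrolase-like protein of the endoplasmic reticulum and hosts miR-335, had 3 probes. The brightest, A_51_P124535 (chr6:30698279-30698338 on mm9, plus strand, 10 spots per file), was at -2.40, -2.54 and -2.67 on the mimic arrays, against -1.49 and -1.98 on the scrambled arrays. Groups were apart, and here scrambled array 1 was the highest array. The difference was -0.80 ± 0.19 (limma adjusted p = 0.077). A_55_P2090025 (chr6:30697385-30697444) was at -3.45, -3.34 and -3.56 on the mimic arrays, against -2.31 and -2.46 on the scrambled arrays, and the spread within each group was small against the gap. It fell by 1.07 ± 0.15, a level 2.09 times lower (limma adjusted p = 0.021 in the fit of every probe), and it was at -1.12 and -1.01 within the scans (limma adjusted p = 0.045 and 0.026). Its call was also lost without any 1 of the mimic arrays (limma adjusted p of 0.094 to 0.140).

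The third Mest probe, A_55_P2151868, was above background in 0 of 6 mimic files and 2 of 4 scrambled files. Those were 1 scan of each scrambled array, so it was not tested and no fold is given. The measured means were -6.25 ± 0.41 (SD, n = 3) with the mimic and -4.79 ± 0.77 (SD, n = 2) with the scrambled sequence. By the brightest probe Mest passed the test blocked on scan with position as a random block (-0.80, limma adjusted p = 0.012) and without scrambled array 2 (-1.04, limma adjusted p = 0.047). When all probes of a gene that passed the filter were averaged, an alternative chosen after seeing the data, Mest was at -0.93 (limma adjusted p = 0.035) and H19 at -1.04 (limma adjusted p = 0.066).

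Peg3 and Zim1 are zinc finger genes of 1 imprinted cluster on chromosome 7, Peg3 being expressed from the paternal copy and Zim1 from the maternal copy. The brightest Peg3 probe, A_52_P235861 (chr7:6658774-6658833 on mm9, minus strand), was at -0.69, -0.56 and -0.57 on the mimic arrays, against -0.26 and 0.05 on the scrambled arrays. The groups did not overlap, and the difference of -0.50 ± 0.16 did not pass the test (limma adjusted p = 0.126). Peg3 passed only without scrambled array 1, among the arrays left out in turn, at -0.66 (limma adjusted p = 0.024). The other Peg3 probe, A_55_P2163319, was at -3.68, -3.63 and -3.45 on the mimic arrays, against -3.30 and -2.18 on the scrambled arrays, a difference of -0.84 ± 0.33 (limma adjusted p = 0.188). The scrambled arrays were 1.12 apart on that probe, which is wider than the difference between the groups.

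Zim1 was at -3.49, -3.32 and -3.69 on the mimic arrays, against -3.43 and -3.04 on the scrambled arrays by its brightest probe, A_55_P1997320 (chr7:6628222-6628281, minus strand). The groups overlapped, and the difference was -0.26 ± 0.19 (limma adjusted p = 0.417). Its second probe, A_55_P1978716, was above background in 3 of 6 mimic files and 4 of 4 scrambled files, with a difference of -0.72 ± 0.23 (limma adjusted p = 0.138). The other genes of this cluster on the array, Usp29 among them, could not be tested: of 5 listed, 4 were on the array and 0 passed the filter.

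Plagl1, a zinc finger transcription factor known in mouse to act on a network of imprinted genes that includes H19 and Igf2, was near the limit of detection. Its brightest probe, A_55_P1961965 (chr10:12848421-12848480, plus strand), was above background in 2 of 6 mimic files, both scans of mimic array 1, and in 4 of 4 scrambled files. It was at -4.01, -5.14 and -5.42 on the mimic arrays, against -3.92 and -4.07 on the scrambled arrays. Mimic array 1 lay between the scrambled arrays, and the difference was -0.86 ± 0.42 (limma adjusted p = 0.256). The 3 other Plagl1 probes were above background in at most 2 of 6 mimic files and in 0 of 4 scrambled files and were not tested. Of those, A_55_P2153251 was higher with the mimic (-5.18 ± 0.20, SD, n = 3) than with the scrambled sequence (-5.80 ± 0.12, SD, n = 2), opposite in sign to the brightest probe. A_55_P1961968 (chr10:12850832-12850891) and A_52_P532456 (chr10:12851280-12851339) lie at separate sites but share a stretch of 26 bases. Their readings may therefore not be fully separate.

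Ndn, which encodes necdin, a protein of the MAGE family known in mouse to promote myoblast differentiation, had 1 probe, above background in 0 of 6 mimic files and in 2 of 4 scrambled files. Both of those files were scans of scrambled array 2. The levels were -5.81, -6.53 and -6.72 on the mimic arrays, against -5.60 and -3.60 on the scrambled arrays, so that scrambled array 2 stood apart. It was not tested, and no fold is given.

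Dlk1, Meg3 and Grb10 were not detected. Dlk1, a paternally expressed membrane protein that restrains adipocyte formation, had 2 probes, and Meg3, the maternally expressed non-coding RNA of the same cluster, had 3. Grb10, an adaptor that dampens signalling from insulin and insulin-like growth factor receptors, had 1. None of these 6 probes was well above background in any of the 10 files, so no fold is given. Of the 5 other listed genes of the Dlk1-Dio3 cluster, 4 were on the array and 0 passed the filter. Not being above background on this array does not show that a transcript is absent.

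**Figure D3:**
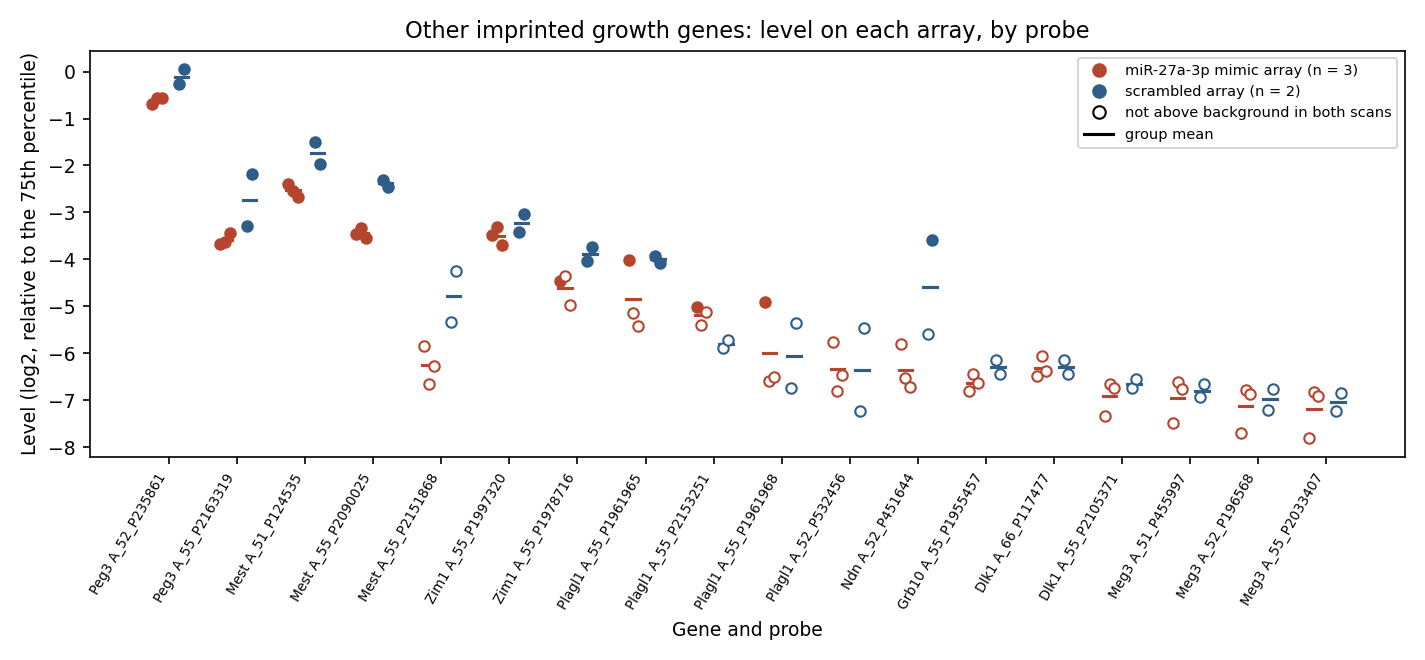
Level on each array for the 18 probes of the members other than H19, in log2 units from the 75th percentile of detected probes. Points are the 3 mimic arrays (left of each pair) and the 2 scrambled arrays (right), lines are group means, and open points were not above background in both scans. The Mest probe A_55_P2090025 has mimic levels of -3.56 to -3.34 and scrambled levels of -2.46 and -2.31, and the Dlk1, Meg3 and Grb10 probes are open throughout.

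For each member above background in all 10 files by its chosen probe, the 3 tested genes with the most similar profile over the 5 arrays were found by the root mean square difference of profiles centred on their own mean. For H19 these were Marf1, Ypel3 and Tmem199, at 0.0151, 0.0165 and 0.0212 log2 units. The nearest to Peg3 were Ccnd3, Nedd8 and Prep, at 0.0116, 0.0213 and 0.0245. The nearest to Mest were Svbp, Adat3 and Tpm1, at 0.0535, 0.0606 and 0.0674, a wider distance than for H19 or Peg3. Zim1 was nearest to Vps51 and Dele1, at 0.0315 and 0.0372, and to a transcript without a gene symbol at 0.0398. A profile over 5 arrays in 2 groups is short.

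Of 73 listed genes outside the members, 69 were on the array and 34 were tested: 3 fell, 1 rose and 30 were not called, where 2.33% of all genes tested fell and 2.8% rose. Their median difference was -0.16, against -0.05 over all genes tested, and 12 of the 34 had an unadjusted p under 0.05, against 3325 of 13137. Igf2, the growth factor gene beside H19, was at -4.81, -4.96 and -5.43 on the mimic arrays, against -2.90 and -1.88 on the scrambled arrays. It fell by 2.67 ± 0.34 (limma adjusted p = 0.016), with 2 of 6 mimic files and 4 of 4 scrambled files above background, so that it passed the filter only with the scrambled files counted and its size rests partly on signals not above background. Both scrambled arrays were far above the mimic arrays, and scrambled array 2 was the higher of them, as for H19. Igf2r, the receptor that clears Igf2, was at -0.05 ± 0.16 (limma adjusted p = 0.868), and Cdkn1c, an inhibitor of cyclin-dependent kinases, was above background in at most 2 files and was not tested.

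Slc22a18, a transporter-like gene further along the same chromosome, was at -3.36, -3.39 and -3.51 on the mimic arrays, against -5.13 and -5.29 on the scrambled arrays. It rose by 1.79 ± 0.14 (limma adjusted p = 0.0055), with 6 of 6 mimic files and 1 of 4 scrambled files above background, so that it passed the filter only through the mimic files and its size rests mostly on scrambled signals not above background. Ddc, which makes dopamine and serotonin from their precursors and lies beside Grb10, was at -3.90, -3.80 and -3.95 on the mimic arrays, against -2.47 and -2.82 on the scrambled arrays. It fell by 1.24 ± 0.16 (limma adjusted p = 0.017). Peg13, a paternally expressed non-coding RNA, was at -2.29, -2.20 and -2.31 on the mimic arrays, against -1.50 and -1.32 on the scrambled arrays, and fell by 0.85 ± 0.14 (limma adjusted p = 0.031). Ddc by its chosen probe, A_55_P2110497, and Peg13 were above background in all files. A second Ddc probe, A_52_P63905, was above background in 0 files and was not tested.

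**Figure D4:**
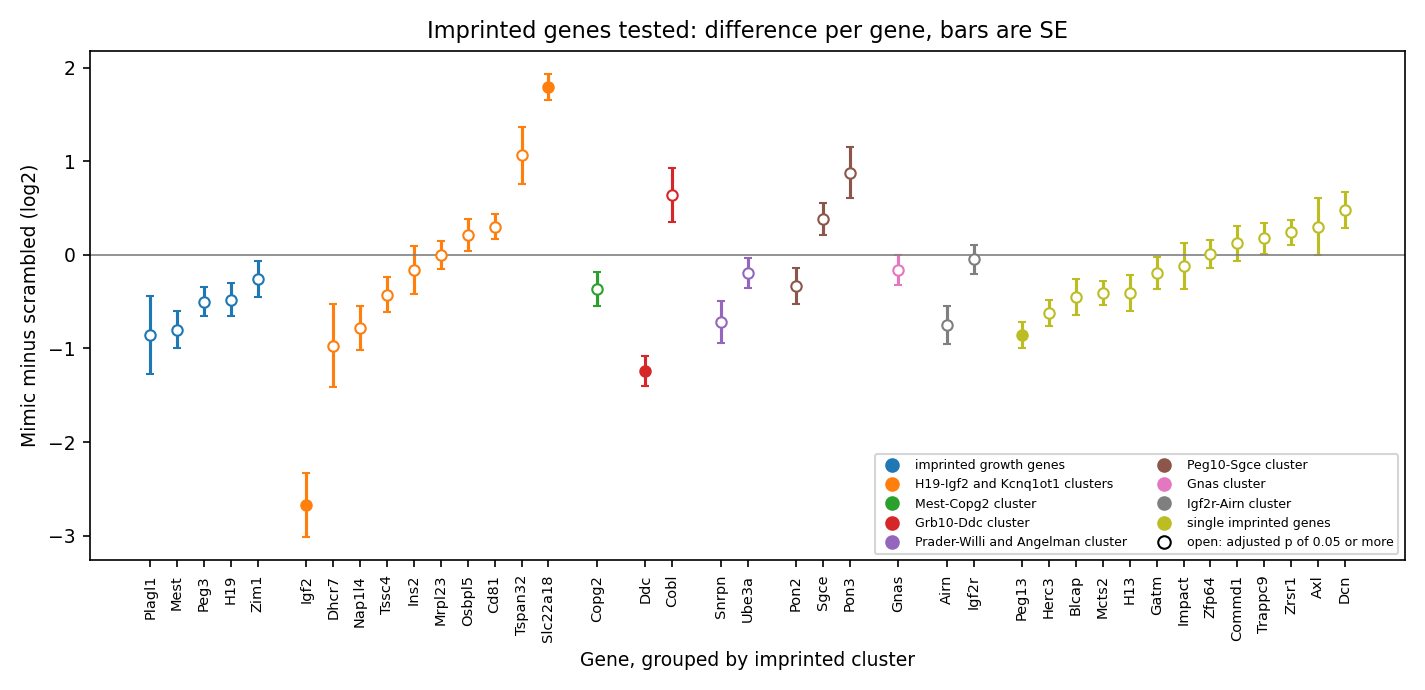
Mimic minus scrambled difference (log2) with standard errors for the 5 tested members, at the left, and the 34 other tested imprinted genes, grouped by imprinted cluster and ordered by difference within each. Filled points passed an adjusted p of 0.05. All 5 members are negative and open, and Igf2 (-2.67), Ddc (-1.24), Peg13 (-0.85) and Slc22a18 (1.79) are filled.

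Factors that set or keep imprints were not called. Of 19 listed, 12 were tested, 0 rose and 0 fell under limma, and the median difference was -0.29. An unadjusted limma p under 0.05 was reached by 3 of the 12, close to the share over all genes tested (3325 of 13137). The smallest p belonged to Zfp445, a zinc finger protein that protects imprints, at -0.86 ± 0.20, then to Dnmt3a, a de novo DNA methyltransferase, at 0.63 ± 0.15 (limma adjusted p = 0.065 and 0.073). Ctcf, the insulator protein that binds the control region between H19 and Igf2, was at -0.49 ± 0.13, and Mbd3, of the methyl-binding domain family, at -0.38 ± 0.17 (limma adjusted p = 0.096 and 0.238).

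Genes known as partners of H19 or as partners or targets of miR-675 were likewise not called. Of 16 listed, 12 were tested, 0 rose and 0 fell under limma, and the median difference was 0.05. Here too 3 of the 12 had an unadjusted limma p under 0.05, close to the share over all genes tested (3325 of 13137). Hmga1, a chromatin protein, was at 0.62 ± 0.14 and Ezh2, the methyltransferase of Polycomb complex PRC2, at 0.73 ± 0.19 (limma adjusted p = 0.067 and 0.090). Mbd1, a methyl-binding protein known to act with H19 in mouse, was at -0.58 ± 0.16, and Igf2bp2, an RNA-binding protein, at -0.42 ± 0.19 (limma adjusted p = 0.099 and 0.230).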

How the data were processed

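The deposited scanner files hold a linear intensity for each spot, which per the file headers is the processed signal of Agilent Feature Extraction after background subtraction. The headers name version 12.0.0.7 and mm9 probe positions, but version 10.7.3.1 stands in the submitters' processing notes. A deposited value table holds 1 intensity per probe, linear and not centred (Spearman correlation with the processed signal of at least 0.99874). Its column medians were 189, 273, 257, 213, 249.8 and 291 for mimic replicates 1 to 6 and 242, 242, 201 and 213 for scrambled replicates 1 to 4. The rule for its empty cells is unknown, and it served as an alternative.

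All 10 files came from 1 slide and 5 positions. The mimic replicates 1 and 4, 2 and 5, and 3 and 6 and the scrambled replicates 1 and 3, and 2 and 4, shared a position and 21 to 75 spots marked as non-uniform, against 0 in other pairs. They were averaged and counted as 1 array, although the labels call every replicate an independent transfection. The p-values measure the spread between 5 arrays, which may be partly technical, and the number of arrays limits the precision.

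Control and outlier spots were left out, spots of a probe averaged, log2 taken and the 75th percentile over 13022 probes above background in all files subtracted. Probes above background in at least 4 files were kept (16783), with the brightest probe per gene (13187, of which 50 lacked a value on an array). A probe with several spots counted as above background where most of them were. Names came from the RefSeq table by accession (28026 probes), symbol (3418) or older symbol (295), or else from the file (23942). limma 3.58.1 in R 4.3.3 (lmFit, eBayes, 3 residual and 2.93 prior degrees of freedom) gave all adjusted p-values, and was checked on simulated data.

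Members and lists were chosen with earlier results of these data known. All members were described, called genes of the imprinted lists were named, and up to 4 genes of the other lists with the smallest p, with Igf2, Igf2r and Cdkn1c whatever their value. Alternatives changed the replicate unit, scan, background correction, scaling, filter, probe per gene, variance model and source of values.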

Additional observations from a re-analysis of the deposited data

How the results depend on the processing

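No alternative turned the direction of a tested member. The 5 members ranged over -1.04 to -0.28 (H19), -1.04 to -0.56 (Mest), -0.67 to -0.34 (Peg3), -1.28 to -0.49 (Plagl1) and -0.49 to -0.07 (Zim1), and 0 were called higher under any alternative. Taken as 10 separate arrays, which counts each scan as a sample, the fit called 4508 genes in either direction, 2531 of them lower. It called 3 members and 11 member probes lower, where 5752 of all 16621 probes tested were called in either direction. H19 was at -0.48 there (limma adjusted p = 0.0076). Blocked on scan, with position as a random block, the fit called 1457 genes, 1 member (Mest) and 7 member probes, where 1636 of 16621 probes were called. With the replicate block it called 1941 genes, 1 member (Mest, -0.78) and 8 member probes, where 2418 of 16621 probes were called. The replicate numbers do not pair the arrays: mimic replicates 1 and 4 shared a position, whereas scrambled replicates 1 and 4 did not. Deviations of files with the same number correlated at 0.38, -0.04, -0.35 and -0.10. With 2 scrambled arrays these correlations are not independent of each other, so they cannot decide on pairing. Averaging the probes of a gene, chosen after seeing the data, gave 1 member (Mest). Without the filter on dim probes 17 genes and 0 member probes were called. The deposited value table had complete values for 8 of the 13 member probes and gave 1 call, that of Mest. Of the tested H19 probes only the brightest was among the 8, so the called H19 probes could not be tried there.

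Leaving out each array in turn gave 47 to 4349 called genes, 0 to 2 members called lower, 0 to 9 member probes called lower and H19 at -0.68 to -0.28. The low counts were those without a mimic array (47, 79 and 138 genes, 0 member probes). Without scrambled array 1 there were 4349 genes, 2 members (H19 and Peg3) and 9 member probes, and without scrambled array 2 there were 567 genes, 1 member (Mest) and 2 member probes. In these last fits the lone scrambled array is assumed to vary like the mimic arrays. The cause of these shifts was not tested. The other scalings, normexp, trend and robust variance and the stricter filter also called 3 member probes, and each scan alone called 2. Dim signals limit Plagl1, Ndn, Dlk1, Meg3 and Grb10.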
